A study of Mus musculus with 3 samples.

Results

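The genes described here build or carry the sugar that L-selectin binds, or act beside it when lymphocytes leave the blood. They are 9 of the 32285 genes counted: Glycam1, Cd34, Chst4, Chst2, Fut7, Madcam1, Gcnt1, Selp and Sele, taken by name. Their levels and joint detection were read in cell barcodes that occurred in all 3 libraries of the series, with at most 20% mitochondrial UMIs, and set against barcodes of 1 library only. A barcode tags a droplet and so usually a cell, and a UMI tags a captured RNA molecule. WT held 3145 such shared barcodes among 11411, and 2992 barcodes of WT only passed the same limit.

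The study grew small-intestinal organoids from C57BL/6 mice, all of which had received 2 doses of tamoxifen at 2 mg when aged 7 to 8 weeks. There was 1 library for each of 3 genotypes, labelled with a day after tamoxifen. They were WT (21 days), LApc (Lgr5-CreERT2 with Apc fl/fl, 29 days) and LApcL (Lgr5-CreERT2 with both Apc fl/fl and Lef1 fl/fl, 21 days). The Cre recombinase is driven from Lgr5, a gene of intestinal stem cells, and is meant to delete Apc, a brake on Wnt signalling, and in LApcL also the Wnt transcription factor Lef1. Organoids of passage 3 were dissociated on day 6, sorted, and sequenced as 10x Chromium 3′ libraries. With 1 library for each genotype no replicate check and no test were possible, and every interval given is a 95% interval for counting error only.

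Lymphocytes enter lymph nodes through high endothelial venules, whose cells make sialomucins such as Glycam1 and Cd34 and decorate them with a sulphated, fucosylated sugar, 6-sulpho sialyl Lewis X. L-selectin on the lymphocyte grips this sugar and the cell starts to roll along the vessel wall. Gcnt1 starts the branch on which the sugar is built, Chst2 and Chst4 add sulphate, and Fut7 adds fucose, while Madcam1 offers a docking site for the gut-homing integrin, and the selectins Selp and Sele bind leukocytes themselves.

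The files count the genes on mm10. Cd34 is overlapped on the other strand by Gm16897 and Selp by Gm16587 and Gm16548, and the other members overlap no annotated gene. The promoters of 5 members are printed because these genes separated into different barcodes in the values that follow. Each run is the 250 bases upstream of the RefSeq start on GRCm38.p6, read 5′ to 3′ on the gene's strand. The RefSeq start of Chst4 lies 406 bases from its start in the GENCODE annotation, and the Chst4 run falls inside the GENCODE gene. Glycam1 lies at chr15:103565082-103565331 on the minus strand, Fut7 at chr2:25422992-25423241 on the plus strand, Chst4 at chr8:110039335-110039584 on the minus strand, Madcam1 at chr10:79664309-79664558 on the plus strand and Selp at chr1:164115014-164115263 on the plus strand. Capitals mark each match, on either strand, to AAGTG, the core letters bound by NKX2 factors, or to AGGTCA, a nuclear receptor half-site.
Glycam1: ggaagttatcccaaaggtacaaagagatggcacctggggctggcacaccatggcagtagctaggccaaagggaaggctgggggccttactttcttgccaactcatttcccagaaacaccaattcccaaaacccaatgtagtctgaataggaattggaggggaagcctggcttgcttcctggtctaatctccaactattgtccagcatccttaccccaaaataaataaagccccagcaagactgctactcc
Fut7: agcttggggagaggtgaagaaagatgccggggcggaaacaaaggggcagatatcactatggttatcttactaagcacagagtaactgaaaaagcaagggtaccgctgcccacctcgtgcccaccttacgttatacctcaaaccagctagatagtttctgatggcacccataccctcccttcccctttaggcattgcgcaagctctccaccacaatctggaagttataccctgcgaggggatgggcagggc
Chst4: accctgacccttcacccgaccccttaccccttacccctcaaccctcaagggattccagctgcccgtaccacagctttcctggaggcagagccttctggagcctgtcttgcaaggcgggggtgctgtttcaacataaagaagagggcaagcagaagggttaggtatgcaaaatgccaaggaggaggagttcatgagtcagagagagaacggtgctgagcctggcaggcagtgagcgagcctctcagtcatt
Madcam1: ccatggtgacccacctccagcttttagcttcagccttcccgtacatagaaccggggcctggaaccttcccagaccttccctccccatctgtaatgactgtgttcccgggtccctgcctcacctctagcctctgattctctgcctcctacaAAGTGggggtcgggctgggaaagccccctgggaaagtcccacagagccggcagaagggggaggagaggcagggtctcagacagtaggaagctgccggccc
Selp: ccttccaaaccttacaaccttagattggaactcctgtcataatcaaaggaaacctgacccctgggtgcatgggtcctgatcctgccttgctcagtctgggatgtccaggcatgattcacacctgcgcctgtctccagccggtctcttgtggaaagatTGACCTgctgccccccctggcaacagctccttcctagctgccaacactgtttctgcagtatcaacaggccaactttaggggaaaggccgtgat
AAGTG occurred in 40.7% of all 32851 RefSeq promoters cut to this length. Madcam1 held 1 match, starting 100 bases upstream, Cd34 held 2 and Gcnt1 and Sele 1 each, and the other 5 members held 0. AGGTCA occurred in 14% of promoters and, among the 9 members, in Selp alone, 93 bases upstream. No match overlapped another. A match describes letters in a window, not a site that was bound.

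The 3 libraries held 10706 to 12068 barcodes and 87185429 to 118867221 UMIs, and 3195 barcodes were present in all of them. Of the UMIs in kept barcodes, 12.9% (WT), 5.42% (LApc) and 6.23% (LApcL) were in the shared barcodes. The tissue label is intestinal organoid, and the shared barcodes barely carried its markers. The files do not show whether the RNA in these barcodes came from the organoids, so their levels describe counts in the libraries labelled WT, LApc and LApcL and may not describe organoid cells. In WT, 6 epithelial genes summed to 11.8 UMIs per 1000000 (CPM) in shared barcodes and 3865 CPM in the barcodes of 1 library, while 8 endothelial genes summed to 5317 CPM and 17.1 CPM. An endothelial gene was detected in 99.1% of shared WT barcodes, and an epithelial gene in 2.03%. The 3134 shared barcodes that passed the limit in every library had nearly the same depth profile throughout. Their total UMIs correlated at Pearson's r = 0.995 (WT and LApc) and 0.994 (WT and LApcL) on the log scale, and their Glycam1 counts at 0.969 and 0.971. These are descriptions over barcodes that share a tag and a depth, and the 3 libraries were therefore not read as replicates for the shared barcodes. In barcodes of 1 library, Apc was at 22.8, 88.0 and 94.4 CPM and Lef1 at 0.95, 70.9 and 49.2 CPM in WT, LApc and LApcL. Counts per gene do not show which exons the 3′ tags came from, so these levels do not check the deletions.

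All 9 members were higher in the shared WT barcodes than in the WT barcodes of 1 library. Glycam1, a secreted sialomucin, was at 5032 CPM in the shared barcodes (40857 UMIs) and at 8.17 CPM (447 UMIs) in the others, a 616-fold ratio. Of the 447 UMIs, 83.4% were in 10 barcodes. The ratio was 5968-fold in LApc and 6135-fold in LApcL, and without barcodes with Epcam or Ptprc the WT log2 ratio fell from 9.27 to 3.05. The other 8 members were 11.1-fold (Chst4) to 711-fold (Fut7) higher in WT. These ratios moved too, least for Chst4 (log2 ratio 2.39 to 4.86 over the alternatives tried). Fut7 was 2616-fold higher in LApc and 5117-fold in LApcL, and its log2 ratio ranged from 3.68 to 12.32. The members' median log2 ratio was 8.97 and that of all 16671 genes compared was 0.27, and 32.9% of those genes were more than 2-fold higher. A gene was compared when both sides together held at least 10 UMIs, and a fold of 2 served as the limit for a difference worth counting. All 9 members passed it in LApc and in LApcL as well, where 25.2% and 27.2% of the genes compared were higher.

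Among the carriers of the sugar, shared barcodes held Glycam1 at 5032 CPM with WT counts, 5107 CPM with LApc counts and 5010 CPM with LApcL counts. Cd34, a sialomucin of many blood vessel cells, was at 392, 389 and 395 CPM in the same order. Both carriers thus stood at nearly the same level in the 3 libraries, as did the other members. Madcam1 varied most, at 35.0, 40.0 and 31.5 CPM.

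Of the enzymes, again with WT, LApc and LApcL counts in that order, Chst4 was at 30.4, 29.2 and 32.3 CPM and Chst2 at 81.0, 77.1 and 78.8 CPM. Fut7 was at 117, 109 and 115 CPM, and Gcnt1 at 41.7, 41.7 and 38.0 CPM. The vascular selectins also stood at similar levels, Selp at 205, 188 and 205 CPM and Sele at 54.8, 59.0 and 53.4 CPM.

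Detection in single barcodes gave the same order of shared over non-shared barcodes at matched depth. Each barcode was thinned at random to 1000 UMIs, and shallower ones were left out (338 shared and 425 of 1 library). Each group was thinned in a draw of its own, so that shares of groups that hold the same barcodes do not add up exactly. An expected share is the exact mean over all possible draws. A Glycam1 UMI was then found in 21.7% of 2807 shared barcodes and 0.117% of 2567 WT barcodes of 1 library, and before thinning in 27.3% and 2.54%, at median depths of 2200 and 5653 UMIs. Cd34 was found in 29.9% and 0% of thinned barcodes, where 0 of 2567 has an exact upper limit of 0.144% at this depth, and before thinning in 44.7% and 1.27%. Chst4 was found in 1.67% and 0.467% of them. Before thinning the Chst4 shares were 4.55% and 4.04%, at unequal depth.

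**Figure D1:**
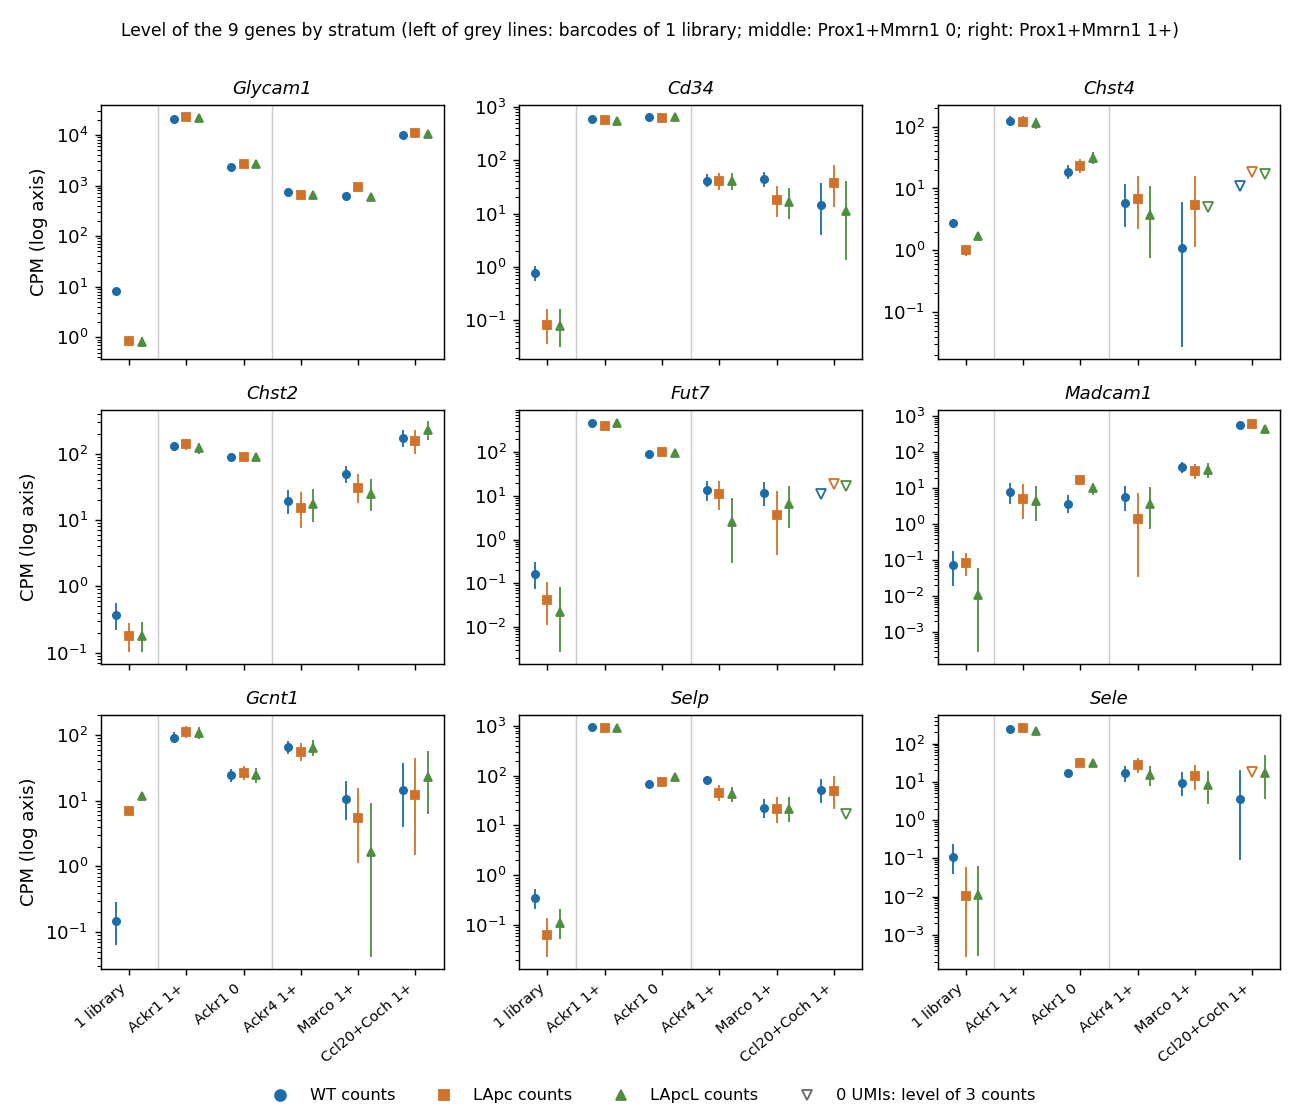
Level of each member (CPM, log axis) by group of barcodes, with 1 symbol per library, exact 95% Poisson intervals as bars and open triangles at the level of 3 counts where there were 0 UMIs. The grey lines part the barcodes of 1 library, the Prox1/Mmrn1-negative and the Prox1/Mmrn1-positive groups. Glycam1 was at 20308 CPM in WT Ackr1-positive and 9805 CPM in WT Ccl20- or Coch-positive barcodes, and at 8.17 CPM in WT barcodes of 1 library.

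The shared barcodes were next divided by Prox1 and Mmrn1, genes of lymphatic endothelial cells. In WT, 1094 barcodes had at least 1 UMI of either gene (Prox1/Mmrn1-positive, median 2848 UMIs) and 2051 had 0 (median 1860 UMIs). Madcam1 was the member that was higher in the positive barcodes, and 6 members were lower, where 15.6% of 12792 genes were more than 2-fold higher and 8.68% were more than 2-fold lower. The members' median log2 ratio was -1.81, and that of all genes was 0.14.

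Madcam1 was at 76.5 CPM in Prox1/Mmrn1-positive and 4.88 CPM in negative WT barcodes, a log2 ratio of 3.97 (3.35 to 4.65). In LApc it was at 79.7 and 14.1 CPM, and in LApcL at 65.7 and 8.65 CPM, so the log2 ratio was smaller there, at 2.5 and 2.93.

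Fut7, the fucosyltransferase, was at 17.6 and 189 CPM in positive and negative WT barcodes, a log2 ratio of -3.42 (-3.83 to -3.05). Cd34 was at 80.3 and 618 CPM (log2 ratio -2.94), and Chst4 at 6.74 and 47.6 CPM (-2.82). The Fut7 ratio was -3.32 in LApc and -4.08 in LApcL, and that of Chst4 was -3.85 and -3.61. Glycam1 was at 2057 and 7186 CPM, a log2 ratio of -1.80, with -2.25 in LApc and -2.19 in LApcL. Barcodes with 0 Glycam1 UMIs made up 73.4% of the positive and 72.4% of the negative WT barcodes, while barcodes with at least 100 made up 1.74% and 4.49%. After thinning, 18.6% and 23.1% held a Glycam1 UMI, and the expected shares were 17.7% and 23.8%. Of the WT Glycam1 UMIs in positive barcodes, 2574 were in 52 barcodes that also held an Ackr1 UMI, where LApc had 91 UMIs in 30 such barcodes and LApcL 297 in 34. The log2 ratios of Selp and Sele were -1.97 and -1.81.

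The branching enzyme Gcnt1 and the sulphotransferase Chst2 differed less across this division, unlike Chst4. Gcnt1 was at 40.8 and 42.5 CPM in positive and negative WT barcodes, a log2 ratio of -0.06 (-0.38 to 0.26), with -0.41 in LApc and -0.64 (-1.07 to -0.22) in LApcL. Chst2 was at 55.4 and 99.6 CPM, a log2 ratio of -0.85 in WT, -1.25 in LApc and -0.87 in LApcL, past the 2-fold limit in LApc alone.

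**Figure D2:**
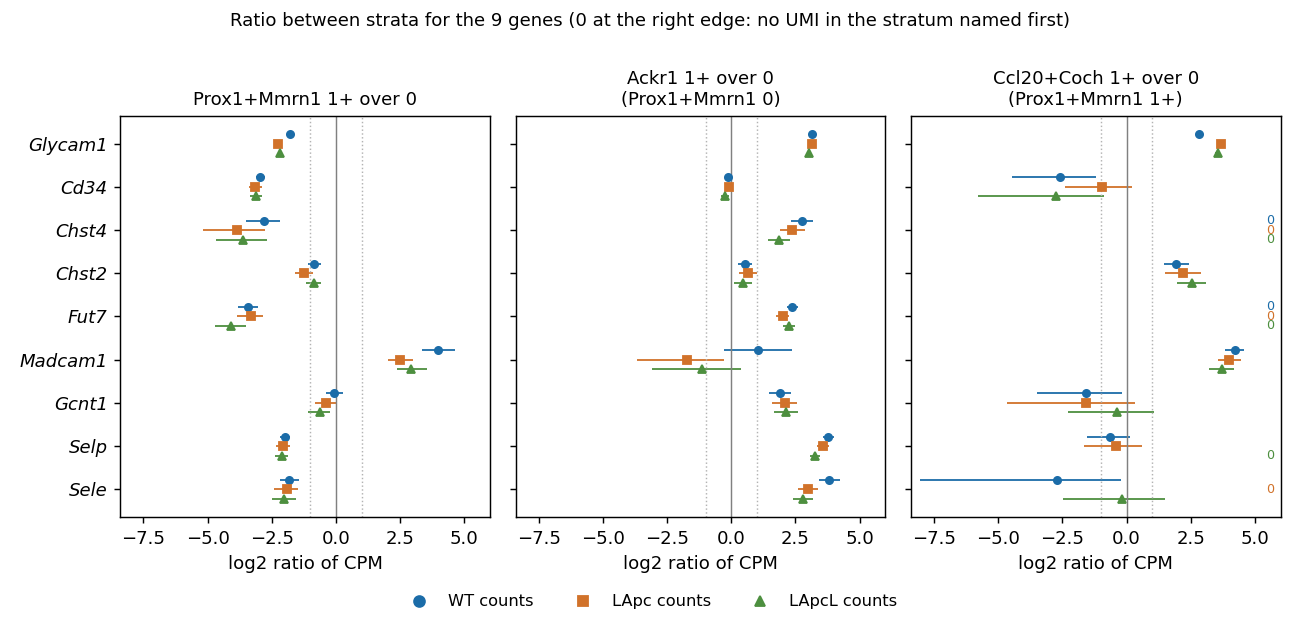
Log2 ratio of the CPM of each member in 3 comparisons of shared barcodes, with 1 symbol per library, exact 95% intervals as bars, dotted lines at a 2-fold difference and a 0 at the right edge where the positive group held no UMI. Madcam1 was higher in Prox1/Mmrn1-positive WT barcodes (3.97), where 6 members were lower, and Cd34 was near 0 (-0.12) between the WT Ackr1 groups.

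Ackr1 is a chemokine-binding receptor of venular endothelium, and it divided the Prox1/Mmrn1-negative barcodes. In WT, 344 of them had at least 1 Ackr1 UMI (Ackr1-positive, median 3538 UMIs) and 1707 had 0 (median 1683 UMIs). Of the 9 members 7 were more than 2-fold higher in the Ackr1-positive barcodes, where 4.21% of 11450 genes were, and 0 were more than 2-fold lower, where 14.3% of genes were. The members' median log2 ratio was 2.38, and that of all genes was -0.24. The Ackr1-positive barcodes were deeper, and among barcodes with at least 2000 UMIs 7 members were again more than 2-fold higher. Over all shared WT barcodes, whatever their Prox1 and Mmrn1 counts, Glycam1 was at 18748 CPM in 396 Ackr1-positive and 1876 CPM in 2749 Ackr1-negative barcodes.

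Glycam1 was at 20308 CPM in the WT Ackr1-positive barcodes and 2313 CPM in the negative ones, 8.78-fold higher with a log2 ratio of 3.13 (3.10 to 3.17). LApc gave 23078 and 2607 CPM, and LApcL 21568 and 2661 CPM. Without the 5% of shared barcodes with the most UMIs the WT log2 ratio was 2.43. Cd34 did not share this pattern, with 581 and 632 CPM in WT and a log2 ratio of -0.12 (-0.24 to 0.00). After thinning, Glycam1 was found in 60.7% and 15.9% of Ackr1-positive and negative barcodes (69.8% and 19.2% before), and Cd34 in 43.8% and 43.6% (80.8% and 59.7% before).

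Of the 4 enzymes, Fut7, Chst4 and Gcnt1 were more than 2-fold higher with Ackr1, and Chst2 was not. Fut7 was at 460 and 88.2 CPM in WT, a log2 ratio of 2.38 (2.18 to 2.59), with 2.01 in LApc and 2.26 in LApcL. Chst4, a sulphotransferase of high endothelial venules, was at 125 and 18.6 CPM in WT (2.75), and its ratio was 2.39 in LApc and 1.87 in LApcL. Gcnt1 was at 91.0 and 24.5 CPM in WT (1.89), 111 and 26.2 CPM in LApc, and 106 and 24.4 CPM in LApcL. Chst2, the other sulphotransferase, was at 129 and 88.5 CPM in WT, a log2 ratio of 0.55 (0.27 to 0.83) that stayed within 2-fold in the 3 libraries.

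The vascular selectins had the highest ratios of the 9 members in WT. Selp was at 922 and 66.7 CPM in Ackr1-positive and negative WT barcodes (log2 ratio 3.79), and at 3.58 and 3.26 on this scale in LApc and LApcL. Sele was at 243 and 17.2 CPM in WT (3.82, 3.42 to 4.25), with ratios of 2.98 and 2.78 in LApc and LApcL. Madcam1 was nearly absent from both groups: its WT ratio of 1.05 (-0.30 to 2.35) rested on 10 and 13 UMIs, 10 of them in 2 barcodes. With groups and counts both taken from LApc or LApcL, the Madcam1 ratio had the opposite sign. It was -1.73 (-3.67 to -0.27) on 4 and 43 UMIs in LApc. In LApcL it was -1.13 (-3.10 to 0.39) on 4 and 27 UMIs, an interval that spanned both signs. So 6 members were higher and 1 lower in each. Of all genes compared, 3.88% (LApc) and 3.65% (LApcL) were more than 2-fold higher, and 15.7% and 15.6% were lower.

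Markers of other cell types were read beside these values. In the WT Ackr1-positive barcodes 6 epithelial genes summed to 6.27 CPM, and 2 of the leukocyte genes were detected, with a sum of 1.57 CPM. The summed venular list was at 3808 CPM, against 1532 CPM in negative barcodes. This list includes Ackr1, the gene that divided the groups, so part of its difference was fixed by the division. The capillary list was at 658 against 2974 CPM and the arterial list at 30.6 against 267 CPM. The lymphatic list was at 7918 against 1344 CPM, of which Ccl21a made up 7856 and 1258 CPM. Erythroid genes summed to 1090 and 32.9 CPM and were detected in 1.16% of Ackr1-positive barcodes. The part of these lists in the members' ratios was not tested.

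Glycam1 was spread unevenly over the Ackr1-positive barcodes. In WT, 104 of 344 held 0 UMIs, 75 held 10 to 99 and 72 held at least 100, and the highest count was 1075. The median count per barcode was 5 (WT), 6 (LApc) and 4 (LApcL). In the Ackr1-negative barcodes 1380 of 1707 held 0 and 20 held at least 100. A count of exactly 1 was found in 6.4% of Ackr1-positive, 9.31% of Ackr1-negative and 2.01% of non-shared WT barcodes. It was found in 9.10% of 747 barcodes with Gpihbp1, a capillary gene, and in 11.1% of 368 Prox1/Mmrn1-positive barcodes with Ackr4, a decoy receptor for homing chemokines. In WT, counts of 1 were thus present at 5.41% to 15.1% in every group of shared barcodes divided here, while counts of at least 100 ranged from 0.386% to 20.9%. In the Gpihbp1-positive barcodes Glycam1 summed to 2265 CPM, of which 10 barcodes held 87.0%.

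**Figure D3:**
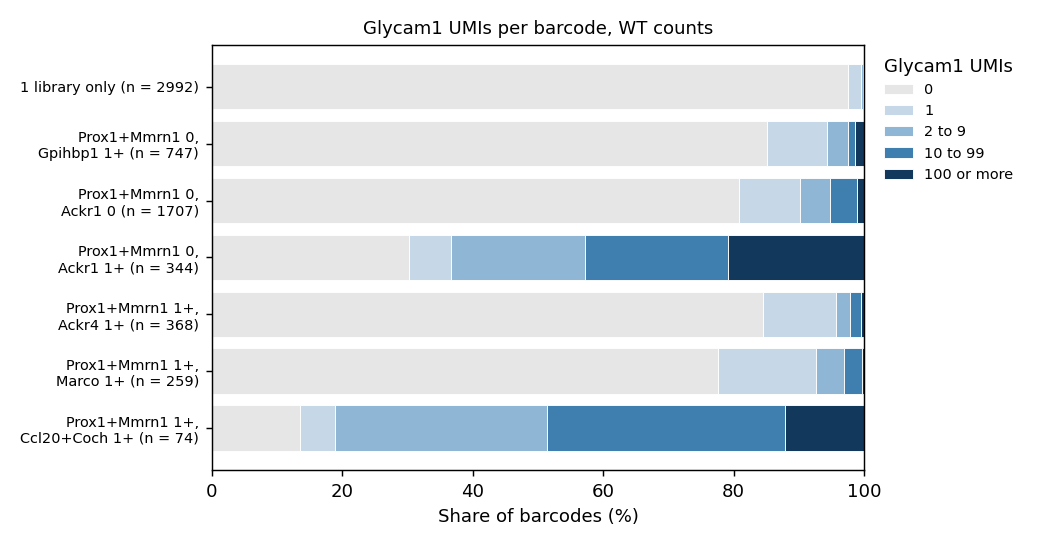
Share of barcodes (%) by number of Glycam1 UMIs (shades) in 7 groups of WT barcodes, with the number of barcodes beside each bar. Of the Ackr1-positive barcodes 20.9% held at least 100 UMIs and 30.2% held 0, and of the barcodes of 1 library 97.5% held 0.

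The members were next counted together in the same barcode. After thinning to 1000 UMIs, 123 of 336 WT Ackr1-positive barcodes, 36.6% (31.4 to 42.0), held a UMI of at least 3 of the 9 members. The share was 38.1% in LApc and 37.8% in LApcL, and 72.4% in WT without thinning. It was 5.06% of 1444 Ackr1-negative barcodes, 3.14% of Gpihbp1-positive and 2.53% of Prox1/Mmrn1-positive ones. In WT barcodes of 1 library it was 0 of 2567, with an exact upper limit of 0.144%, and 4 of 2992 before thinning. Without Cd34 and Glycam1, the 2 members found most often, the share with at least 3 of the remaining 7 was 5.36% in the Ackr1-positive barcodes.

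**Figure D4:**
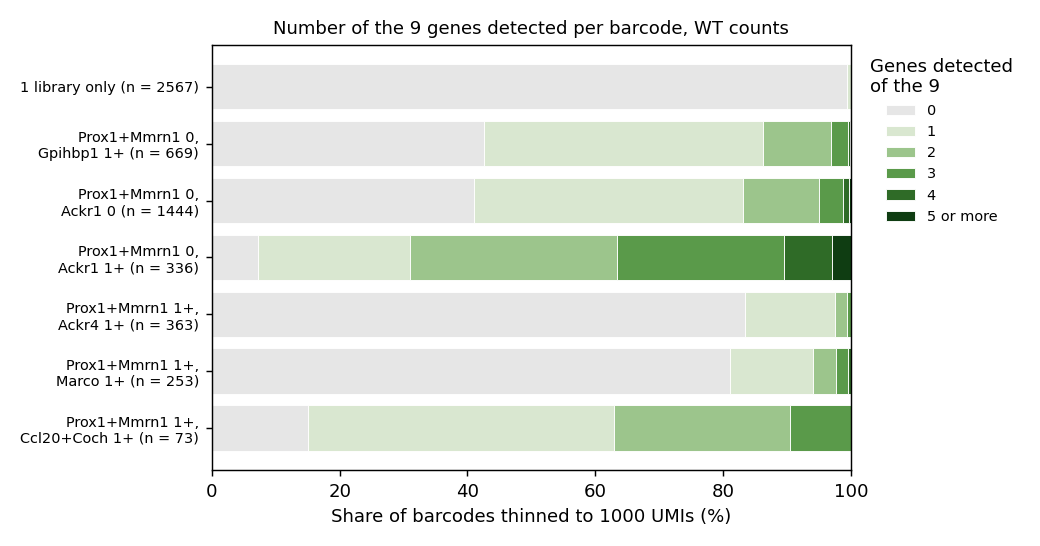
Share of WT barcodes (%) by how many of the 9 members were detected (shades) after thinning to 1000 UMIs, in 7 groups of barcodes. At least 3 members were detected in 36.6% of Ackr1-positive, 5.06% of Ackr1-negative, 9.59% of Ccl20- or Coch-positive and 0% of the barcodes of 1 library.

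Within the Ackr1-positive WT barcodes, thinned to 1000 UMIs, Glycam1 was found more often where Fut7, Chst4 or Gcnt1 was found than where it was not, and about as often with and without Chst2. Of the thinned WT barcodes with Fut7, 87.5% (84 of 96) also held Glycam1, and of the 240 without Fut7 120 did. In LApc the shares were 85.9% and 53.2%, and in LApcL 88.9% and 50.2%. With Chst4, 86.1% of 36 barcodes held Glycam1, against 57.7% of the 300 without it, and with Gcnt1 18 of 20 did, against 58.9% of 316. In LApcL the Gcnt1 shares were 76.0% of 25 and 60.6%, where the intervals overlapped. With Chst2, 60.0% of 45 WT barcodes held Glycam1, against 60.8% of 291 without it, and before thinning the shares were 82.6% and 63.3%.

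Within the Ackr1-positive barcodes, Selp and Sele were found in smaller shares of the barcodes with Fut7 than of those without it. Selp was in 13.5% (7.41 to 22.0) of thinned WT Ackr1-positive barcodes with Fut7 and in 41.7% (35.4 to 48.2) of those without it. The shares were 14.1% and 46.3% in LApc and 17.8% and 48.8% in LApcL, and before thinning 45.5% and 62.5% in WT. Sele was in 3.13% and 19.6% of WT barcodes with and without Fut7, in 10.3% and 20.7% in LApc, and in 7.78% and 18.7% in LApcL. The intervals overlapped in LApc and LApcL, and in WT before thinning (26.1% and 35.7%). Over all shared WT barcodes the direction was the opposite: Selp was in 12.6% of thinned barcodes with Fut7 and 7.16% of those without, where the intervals overlapped, and before thinning in 30.5% and 8.62%. Sele was in 4.95% and 3.2% after thinning, also with overlapping intervals, and in 16.7% and 4.18% before.

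The selectins themselves were found together: Sele was in 28.3% of WT Ackr1-positive barcodes with Selp and 8.07% of those without. LApc gave 29.5% and 10.8%, and LApcL 28.0% and 7.18%. Selp was in 27.5% of thinned WT Ackr1-positive barcodes with Glycam1 and 43.2% of those without, in 28.0% and 52.8% in LApc, and in 34.6% and 47.4% in LApcL. The intervals overlapped in LApcL, and in WT before thinning (51.3% and 59.6%). Over all shared WT barcodes Selp was instead more frequent with Glycam1, at 15.9% and 5.19% after thinning. Selp was in 13.9% of thinned WT barcodes with Chst4 and 36.0% of those without, in 19.4% and 39.6% in LApc, and in 33.3% and 40.0% in LApcL. The intervals overlapped in LApc and LApcL, and in WT before thinning (46.2% and 56.5%). Fut7 was found in 84.6% of WT barcodes with Chst4 and 39.1% of those without before thinning, in 77.0% and 38.3% in LApc and in 75.4% and 36.3% in LApcL. After thinning the shares were 47.2% and 26.3% in WT, 35.5% and 26.8% in LApc, and 29.2% and 30.2% in LApcL, and the intervals overlapped in each library.

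**Figure D5:**
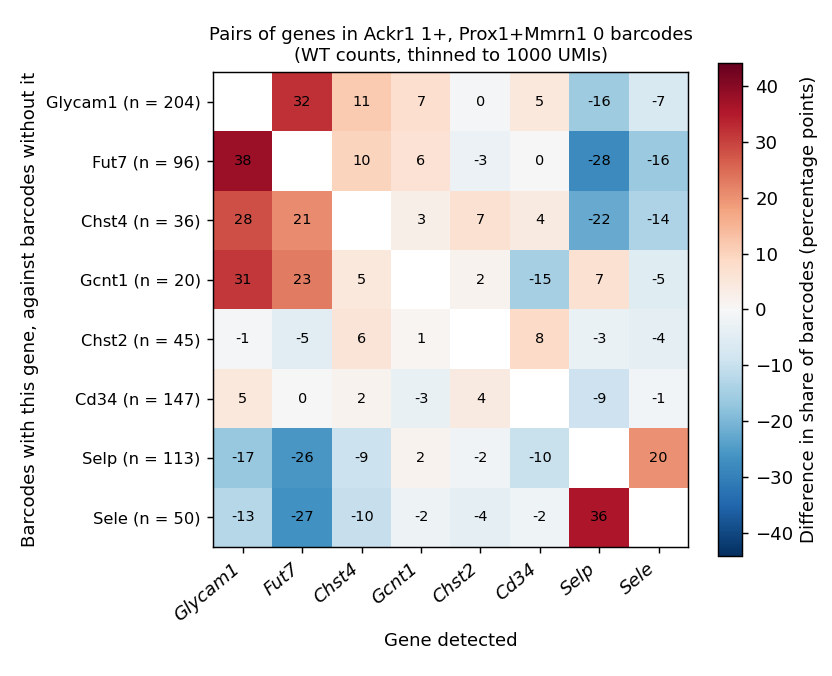
Difference, in percentage points, between the share of barcodes with the gene of the column among barcodes with and without the gene of the row, in thinned WT Ackr1-positive barcodes. Madcam1, found in 1 of them, is left out. Red cells join Glycam1 to Fut7, Chst4 and Gcnt1, and Selp to Sele, and blue cells join Selp and Sele to Fut7 (13.5% of barcodes with Fut7 held Selp and 41.7% of those without).

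Another setting of Glycam1 lay among the Prox1/Mmrn1-positive barcodes. Ccl20, a chemokine, and Coch, an extracellular matrix protein, divided them into 74 WT barcodes with at least 1 UMI of either (median 3378 UMIs) and 1020 with 0 (median 2816 UMIs). This division was chosen after the data were seen. Of the 9 members 3 were more than 2-fold higher in the Ccl20- or Coch-positive barcodes, where 9.26% of 11345 genes were, and 3 were lower, where 11.5% were. The members' median log2 ratio in WT was -0.63 with genes at 0 entered at 3 counts, and that of all genes was 0.04. The members' median was -0.18 in LApc and 0.53 in LApcL.

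Glycam1 was at 9805 and 1373 CPM in the WT Ccl20- or Coch-positive and negative barcodes, a log2 ratio of 2.84 (2.77 to 2.91), with 3.70 in LApc and 3.55 in LApcL. Madcam1 was at 585 and 31.6 CPM (4.21, 3.84 to 4.59), with 603 and 37.6 CPM in LApc and 453 and 34.8 CPM in LApcL. Chst2 was at 173 and 45.0 CPM in WT (1.95), and its ratio was 2.21 in LApc and 2.54 in LApcL. After thinning to 1000 UMIs, 79.5% of 73 positive WT barcodes held Glycam1, 32.9% held Madcam1 and 12.3% held Chst2, and before thinning 86.5%, 62.2% and 41.9% did. In the negative barcodes the thinned shares were 13.9%, 2.73% and 3.88%, where the expected Madcam1 share was 2.36%.

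Chst4 and Fut7 were at 0 UMIs in the Ccl20- or Coch-positive barcodes of all 3 libraries. In WT, 0 UMIs allowed up to 10.8 CPM (3 counts), against 7.34 CPM (Chst4) and 19.1 CPM (Fut7) in the negative barcodes, so that a fall of Chst4 was not detectable at this depth and Fut7 was at least 1.77-fold lower. In LApc and LApcL the limits did not show a difference for either gene. Cd34 held 4 UMIs, Gcnt1 4 and Sele 1 in the 74 WT barcodes, log2 ratios of -2.58, -1.58 and -2.73. All 14 Selp UMIs were in 1 barcode. In LApc Cd34 was within 2-fold (-0.94), and in LApcL Gcnt1 and Sele were (-0.35 and -0.16). Selp had 0 UMIs in LApcL, at least 4.34-fold lower, and Sele had 0 in LApc, where the limit of 3 counts did not show a 2-fold difference.

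Gene lists of other cell types differed between these groups too. The 8 endothelial genes summed to 2604 CPM in the WT Ccl20- or Coch-positive and 4942 CPM in the negative barcodes. Genes of the platelet list were at 776 and 294 CPM, and 54 of the 74 barcodes held Itga2b, an integrin subunit, while Gp9, a platelet glycoprotein, was at 0. The fibroblast and mural list was at 285 and 27.4 CPM, nearly all of it Rgs5 (264 CPM), with Pdgfra, Pdgfrb and Col1a1 at 0. Epithelial genes summed to 108 and 8.30 CPM, in 8.11% and 2.45% of barcodes, and leukocyte genes were at 0. The part of these lists in the members' values was not tested.

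The barcodes rich in Glycam1 therefore held different members beside it. In WT, 319 shared barcodes had at least 10 Glycam1 UMIs: 147 were positive for Ackr1 alone, 65 for Prox1 or Mmrn1 alone, 17 for both and 90 for neither. In that order they held 62.5%, 9.81%, 6.21% and 18.3% of all Glycam1 UMIs of the shared barcodes. LApc had 281 such barcodes (131, 59, 4 and 87) and LApcL 282 (132, 54, 8 and 88). Those positive for both held 0.230% of the shared barcodes' Glycam1 UMIs in LApc and 0.875% in LApcL.

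Fut7 was found in 120 of the 147 Ackr1-positive Glycam1-rich barcodes and in 4 of the 65 with Prox1 or Mmrn1. Chst4 was found in 75 and 2, and Cd34 in 130 and 5. Madcam1 had the reverse distribution, with 0 of 147 and 46 of 65. Chst2 was the enzyme frequent in both, in 69 and 38 barcodes, and Gcnt1 was found in 60 and 13. Selp was found in 77 and 0, and Sele in 41 and 2. The 90 barcodes with neither marker held Fut7 in 53, Chst4 in 28 and Cd34 in 61.

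Other Prox1/Mmrn1-positive barcodes were read by Ackr4 and by Marco. With Ackr4 (368 barcodes in WT) Glycam1 was at 729 CPM, of which 10 barcodes held 93.8% while 311 held 0 UMIs, and Gcnt1 was at 65.7 CPM, in 18.2% of barcodes, while Madcam1 was at 5.82 CPM. With Marco, a scavenger receptor of some lymphatic cells (259 barcodes), Gcnt1 was at 10.7 CPM and Madcam1 at 38.4 CPM. Gcnt1 was thus higher with Ackr4 and Madcam1 with Marco, and the intervals of the 2 levels did not overlap for either gene.

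The genes whose counts ran most like each member's were sought over the 3145 shared WT barcodes among 9443 genes, by Pearson's r of log counts scaled to 10000 UMIs per barcode. The points share a library and differ in depth, and the values are descriptions. Glycam1 ran most like Ccl21a (0.588), a homing chemokine, Ubd (0.541) and Fut7 (0.524), and Fut7 like Ccl21a (0.583), Glycam1 and Ubd (0.515). Chst4 was closest to Ccl21a (0.478), Glycam1 (0.460) and Fut7 (0.454). Selp was closest to Ackr1 (0.555), Vwf (0.528), a clotting factor carrier, and Sele (0.508), and Sele to Selp, Ackr1 (0.425) and Vwf (0.292). Madcam1 ran with another group, Mmp9 (0.570), Bmp2 (0.472) and Postn (0.460), and Cd34 with Aqp1 (0.487), Ctla2a (0.487) and Ly6c1 (0.454). The values were weaker for Gcnt1 (Ccl21a 0.246, Pglyrp1 0.244, Glycam1 0.239) and Chst2 (Glycam1 0.268, Col15a1 0.201).

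Other genes of the pathway were taken from lists of cores, enzymes, donor supply and adhesion genes. Between Ackr1-positive and negative WT barcodes, 0 of 4 tested sialomucin cores were higher and 2 lower, and 1 of 15 glycan enzymes was higher and 3 lower, beside 4.21% of all genes higher and 14.3% lower. With LApc counts 1 core and 1 enzyme were lower. All 9 genes tested for the supply of sulphate, fucose and sialic acid donors stayed within 2-fold in WT, and 1 was lower in LApc and 1 in LApcL. Of 15 adhesion and venule genes 6 were higher and 1 lower. Among the enzymes Chst1, which sulphates galactose, was at 65.9 and 16.3 CPM. Fut8, the core fucosyltransferase, was at 14.1 and 54.5 CPM and the sulphotransferase Chst7 at 4.71 and 16.3 CPM. With LApc counts Fut8 was the lower enzyme, and Chst7 was not called lower. The sialomucin Podxl was at 50.2 and 271 CPM. Ccl21a was at 7856 and 1258 CPM, Vwf at 660 and 114 CPM and Ch25h, a sterol hydroxylase, at 119 and 28.0 CPM. The chemokine Cxcl12 had the opposite direction, at 139 and 913 CPM.

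In the Ccl20- or Coch-positive barcodes the same lists gave other counts: 0 of 5 cores higher and 3 lower, 1 of 15 enzymes higher and 6 lower, and 2 of 16 adhesion genes higher and 4 lower in WT, beside 9.26% of all genes higher and 11.5% lower. The enzyme counts were not stable, with 2 higher and 3 lower in LApc and 2 higher and 0 lower in LApcL. Ccl21a was at 25.3 CPM there and 381 CPM in the negative Prox1/Mmrn1-positive barcodes, and so was low where Glycam1 was high.

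In the barcodes of 1 library, which carried epithelial genes, Gcnt1 was the member that differed most between genotypes. WT held 8 Gcnt1 UMIs (0.146 CPM), LApc 677 (7.06 CPM) and LApcL 1040 (11.6 CPM). A Gcnt1 UMI was found in 0.234%, 10.7% and 12.7% of barcodes, at median depths of 5653, 21321 and 6149 UMIs. In barcodes with at least 10000 UMIs the levels were 0.0818, 7.23 and 12.5 CPM. The log2 ratio to WT was 5.6 (4.61 to 6.81) in LApc and 6.32 (5.33 to 7.53) in LApcL. Beside this level, the ratio of Gcnt1 between shared and non-shared barcodes was 286-fold in WT and 5.90-fold and 3.27-fold in LApc and LApcL.

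Chst4 was at 2.74, 1.0 and 1.71 CPM in these barcodes of WT, LApc and LApcL, and Glycam1 at 8.17, 0.856 and 0.817 CPM. In the 78 WT barcodes with at least 10 UMIs of the goblet cell mucin Muc2 and 0 of Pecam1 and Cdh5, Chst4 was at 22.7 CPM, in 25 of 78. The 447 Glycam1 UMIs of WT were in 76 barcodes, and 119 UMIs were in barcodes with the endothelial genes Pecam1 or Cdh5. The remaining members were at or below 0.767 CPM in the non-shared WT barcodes.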

How the data were processed

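The authors made 10x Chromium 3′ libraries of organoid cells, and the deposited files hold unnormalised whole-number UMI counts per gene and barcode. Per the file headers the counts were made with Cell Ranger 6.0.1, while the submitters' processing notes name Cell Ranger 2.1.1, with mm10 and GRCm38. The strand setting of the counting is not given in the sources used here.

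Barcodes with over 20% of UMIs from 13 mitochondrial genes were left out, as in the study's methods. Barcodes were then grouped by whether the same tag occurred in 1 library or in all 3, and shared ones by at least 1 UMI of Prox1 or Mmrn1, of Ackr1, and of Ccl20 or Coch. The members, lists and divisions were chosen with earlier results of these data known. Counts were summed over barcodes and scaled to CPM, with exact Poisson intervals for levels, exact conditional binomial intervals for ratios and Clopper-Pearson intervals for shares, all at 95%. A count of 0 was set to 3 counts for a level or ratio. Since every genotype had 1 library, no test was run and no p-value is given. No doublet caller was run. Instead, barcodes with the most UMIs, or with Epcam or Ptprc, were left out as alternatives. Genes named for likeness were the top 3 for each member with r of at least 0.2, among genes found in at least 50 barcodes, and at most 8 pathway genes were named, those furthest past 2-fold between the Ackr1 groups. Thinning used seed 1 and a separate draw for each group and library. Ratios and thinning were tested on simulated counts. Python 3.11.15, numpy 2.4.6, scipy 1.17.1 and matplotlib 3.10.9 were used. PCR copies are collapsed by UMI, and the intervals cover counting error only.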

Additional observations from a re-analysis of the deposited data

Results flagged for a closer look

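Some barcodes lay outside the comparisons and still held Glycam1 above the 8.17 CPM of WT barcodes of 1 library or above what 0 counts allow. In the shared barcodes over the mitochondrial limit Glycam1 was at 5214 CPM in 50 WT barcodes, 5397 CPM in 44 LApc barcodes and 6244 CPM in 46 LApcL barcodes, near its level in the kept shared barcodes. In barcodes present in exactly 2 libraries it was at 289 CPM in 80 WT barcodes, 7.44 CPM in 32 LApc barcodes (4 UMIs) and 62.3 CPM in 81 LApcL barcodes.

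Gcnt1 was above its WT level of 0.146 CPM in the barcodes of 1 library, at 7.06 CPM in LApc and 11.6 CPM in LApcL. With 1 library for each genotype this difference was not tested, and genotype and library cannot be told apart.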

How the results depend on the processing

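No paired analysis was possible because each group has 1 library and no replicate to pair or leave out. The count of 9 members higher in shared barcodes was found under all 14 alternatives, while the ratios of single members moved widely, and the log2 ratio of Glycam1 ranged from 3.05 (without barcodes with Epcam or Ptprc) to 12.84 (only barcodes with at least 2000 UMIs). The count of members past the fold between Prox1/Mmrn1-positive and negative barcodes was 7 and fell to 4 (1 higher and 3 lower) at a 4-fold limit; under the other 16 alternatives it stayed within 1.5 times. Between the Ackr1 groups it was 5 to 7 under 17 alternatives. The Madcam1 ratio there reversed to -1.73 with groups and counts both from LApc and to -1.13 with both from LApcL. Under the other 12 alternatives in which it was compared the ratio stayed within its interval. These included LApc and LApcL counts of the WT groups. The cause of the reversal was not tested. Between the Ccl20- or Coch-positive and negative barcodes the count was 4 to 8 under 12 alternatives chosen after seeing the data.

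The share of WT Ackr1-positive barcodes with at least 3 members, 36.6%, moved with its own definition. It was 16.6% at 500 UMIs, 68.7% at 2000 UMIs and 72.4% without thinning. It was 69.0% for at least 2 members, 10.4% for at least 4, and 5.36% with Cd34 and Glycam1 not counted, an alternative chosen after seeing the data. Under the other 13 alternatives it stayed within its interval. Depth limits Madcam1, Chst4, Fut7, Cd34, Gcnt1, Selp and Sele in the smaller groups, where 0 to 14 UMIs stood behind a value.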
